A study of Mus musculus with 28 samples.

Results

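The genes described here encode parts of the axoneme and of the sperm flagellum. They are the protein-coding genes whose symbols begin with Cfap, Dnah, Dnai, Rsph, Tekt, Odf or Drc followed by a digit. Of 37122 mouse genes with a transcript in the table, 21430 of them protein-coding, 69 met the rule. There were 30 Cfap, 15 Dnah, 8 Odf, 8 Rsph, 5 Tekt and 3 Drc genes. No gene carried a Dnai symbol in the annotation used, and 1 further gene of the rule had no row. RNA was sequenced from mice wildtype or knockout for Csmd1, in 28 libraries of 13 mice. The labels give the strain as C57BL/6, whereas the methods describe the colony as mixed 129SvEvBrd:C57BL/6. The knockout allele lacks the first exon and part of the first intron of Csmd1, which are replaced by a cassette. Germ cells were sorted by Hoechst staining, from males of about 40 days according to the methods, into spermatogonia (R5), primary spermatocytes (R7), secondary spermatocytes (R6) and spermatids (R4). Wildtype mice 178 and 648 and knockout mouse 544 gave all 4 stages. Wildtype mouse 351 gave spermatids, knockout mouse 286 gave every stage except primary spermatocytes, knockout mouse 550 gave both spermatocyte stages, and knockout mice 613 and 614 gave primary spermatocytes. Whole testes came from 2 wildtype (178, 648) and 5 knockout males (214, 269, 273, 286, 308), and 1 wildtype ovary came from mouse 86. The study describes whole testes of both sexually immature and sexually mature males. Ages of single mice were read here only for mice 178 and 351 (40 days each). The ages of the others were not read, among them mice 648 and 286, which gave both sorted cells and a whole testis.

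The axoneme is the microtubule core of motile cilia and flagella. Dynein heavy chains (Dnah) form the outer and inner arms that slide neighbouring doublets, the nexin-dynein regulatory complex (Drc) links the doublets, and radial spokes (Rsph) relay signals from the central pair to the arms. Tektins (Tekt) and many cilia and flagella associated proteins (Cfap) line or decorate the doublets, and outer dense fibers (Odf) surround the axoneme in the sperm tail only.

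Several libraries stood apart before any comparison. The library labelled spermatogonia of knockout mouse 544 held 1402 RPKM (reads per kilobase of transcript, scaled to the mapped reads of the library) of Prm1, the protamine that packs spermatid DNA, against 0.0940 to 92.9 RPKM in the other 3 spermatogonia libraries. Its summed level of 5 spermatogonial markers was 268 RPKM, against 492 to 578 RPKM in the other 3, so results that rest on it are given with and without it. The summed level of 6 primary spermatocyte markers did not separate the sorts, with 390 to 2236 RPKM in spermatogonia and 341 to 2938 RPKM in primary spermatocytes. The spermatid libraries of wildtype mouse 648 and knockout mouse 286 held 0.579 and 2.14 RPKM of Prm1, against 930 to 2579 RPKM in the other 3 spermatid libraries. The spermatid libraries of mice 648 and 286 thus held little RNA of this spermatid marker. The primary spermatocyte library of mouse 613 lacked 12787 transcripts, against at most 2828 elsewhere, although none of the 266 rows of members. Its depth could not be recovered, and its member sums may not be on the scale of the other libraries. Odf2, summed over 25 transcripts, was at 1177 RPKM there and at 7265 to 15591 RPKM in other primary spermatocyte libraries. Dnah8, with 1 transcript, was at 542 RPKM there and at 169 to 347 RPKM in the others. The library was kept in the reported fits. Stra8, Acrv1 and Rhox5 had values only in that library and were left out of the marker lists. Csmd1 summed over its transcripts was 0.0330 to 1.66 RPKM in wildtype and 0.0490 to 6.33 RPKM in knockout sorted libraries. The study reports absent or strongly lowered reads over most Csmd1 exons in knockout testes, and raised reads over the last exons. On the longest coding transcript, whole testes had a median of 0.1445 RPKM in wildtype and 0.0710 RPKM in knockout. Spermatids had medians of 0.160 RPKM and 1.19 RPKM in the same order. Levels per transcript do not separate these exons, so they do not check the labels. In sorted or whole tissue, fewer cells of a type and less RNA per cell cannot be told apart.

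Regulatory factor X (RFX) proteins drive ciliary genes through X-box sites, so the letters of 2 X-box half-sites, GTTGCCA and GTTGCTA, were searched on both strands of the promoters. RefSeq promoters on GRCm38.p6, from 250 bases before to 50 after a start, were matched by symbol for 56 of 69 members. At least 1 of the half-sites occurred in 30 of 56 members (53.6%), against 8.77% of 27025 genes. By subfamily the share was 14 of 23 for Cfap, 8 of 14 for Dnah, 2 of 3 for Drc, 2 of 6 for Odf, 1 of 5 for Rsph and 3 of 5 for Tekt. Members carried 1.21 promoters each and all genes 1.22. The cAMP response element TGACGTCA occurred in 1 of 56 members (1.79%) and in 2.03% of genes. A match is a description of letters and not evidence of binding. For each subfamily, the member with a half-site and the highest RPKM per length is shown as the stretch around that site, on the strand of the gene and no further than the start, with half-sites in capitals (TGGCAAC and TAGCAAC are the same letters read on the other strand).
Cfap36, chr11:29247394-29247460, minus strand: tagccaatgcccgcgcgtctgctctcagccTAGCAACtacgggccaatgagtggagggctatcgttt
Dnah6, chr6:73221632-73221697, minus strand: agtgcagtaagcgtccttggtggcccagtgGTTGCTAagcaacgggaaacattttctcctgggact
Drc1, chr5:30281351-30281392, plus strand: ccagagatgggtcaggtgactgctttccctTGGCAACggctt
Odf3l1, chr9:56853901-56853967, minus strand: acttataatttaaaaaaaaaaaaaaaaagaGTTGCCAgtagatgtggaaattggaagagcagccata
Rsph14, chr10:75032587-75032624, minus strand: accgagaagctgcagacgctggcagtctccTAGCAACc
Tekt1, chr11:72361883-72361927, minus strand: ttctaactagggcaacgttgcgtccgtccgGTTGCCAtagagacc

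Most members were higher in primary spermatocytes than in spermatogonia. Of 68 members tested, 46 rose and 0 fell (limma on quantile-normalized log2(RPKM + 0.1), Benjamini-Hochberg adjusted p under 0.05). Of all 22669 genes tested, 14.4% were called higher and 14.0% lower. The median member difference was 1.89 on the log2 scale, against 0.05 over all genes. One member, Odf3l2, was near 0 RPKM in every library and was not tested. Somatic markers moved with the same comparison: 6 peritubular and stromal genes summed to 28.7 to 804 RPKM in spermatogonia and 2.16 to 46.0 RPKM in primary spermatocytes, and 5 Sertoli genes to 53.0 to 100.85 RPKM and 3.41 to 25.4 RPKM. Their part in the result was not tested. Without the spermatogonia library of mouse 544 the count was 55, beside 16.3% of genes, and without every library of wildtype mouse 648 it was 24, beside 5.44%.

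**Figure D1:**
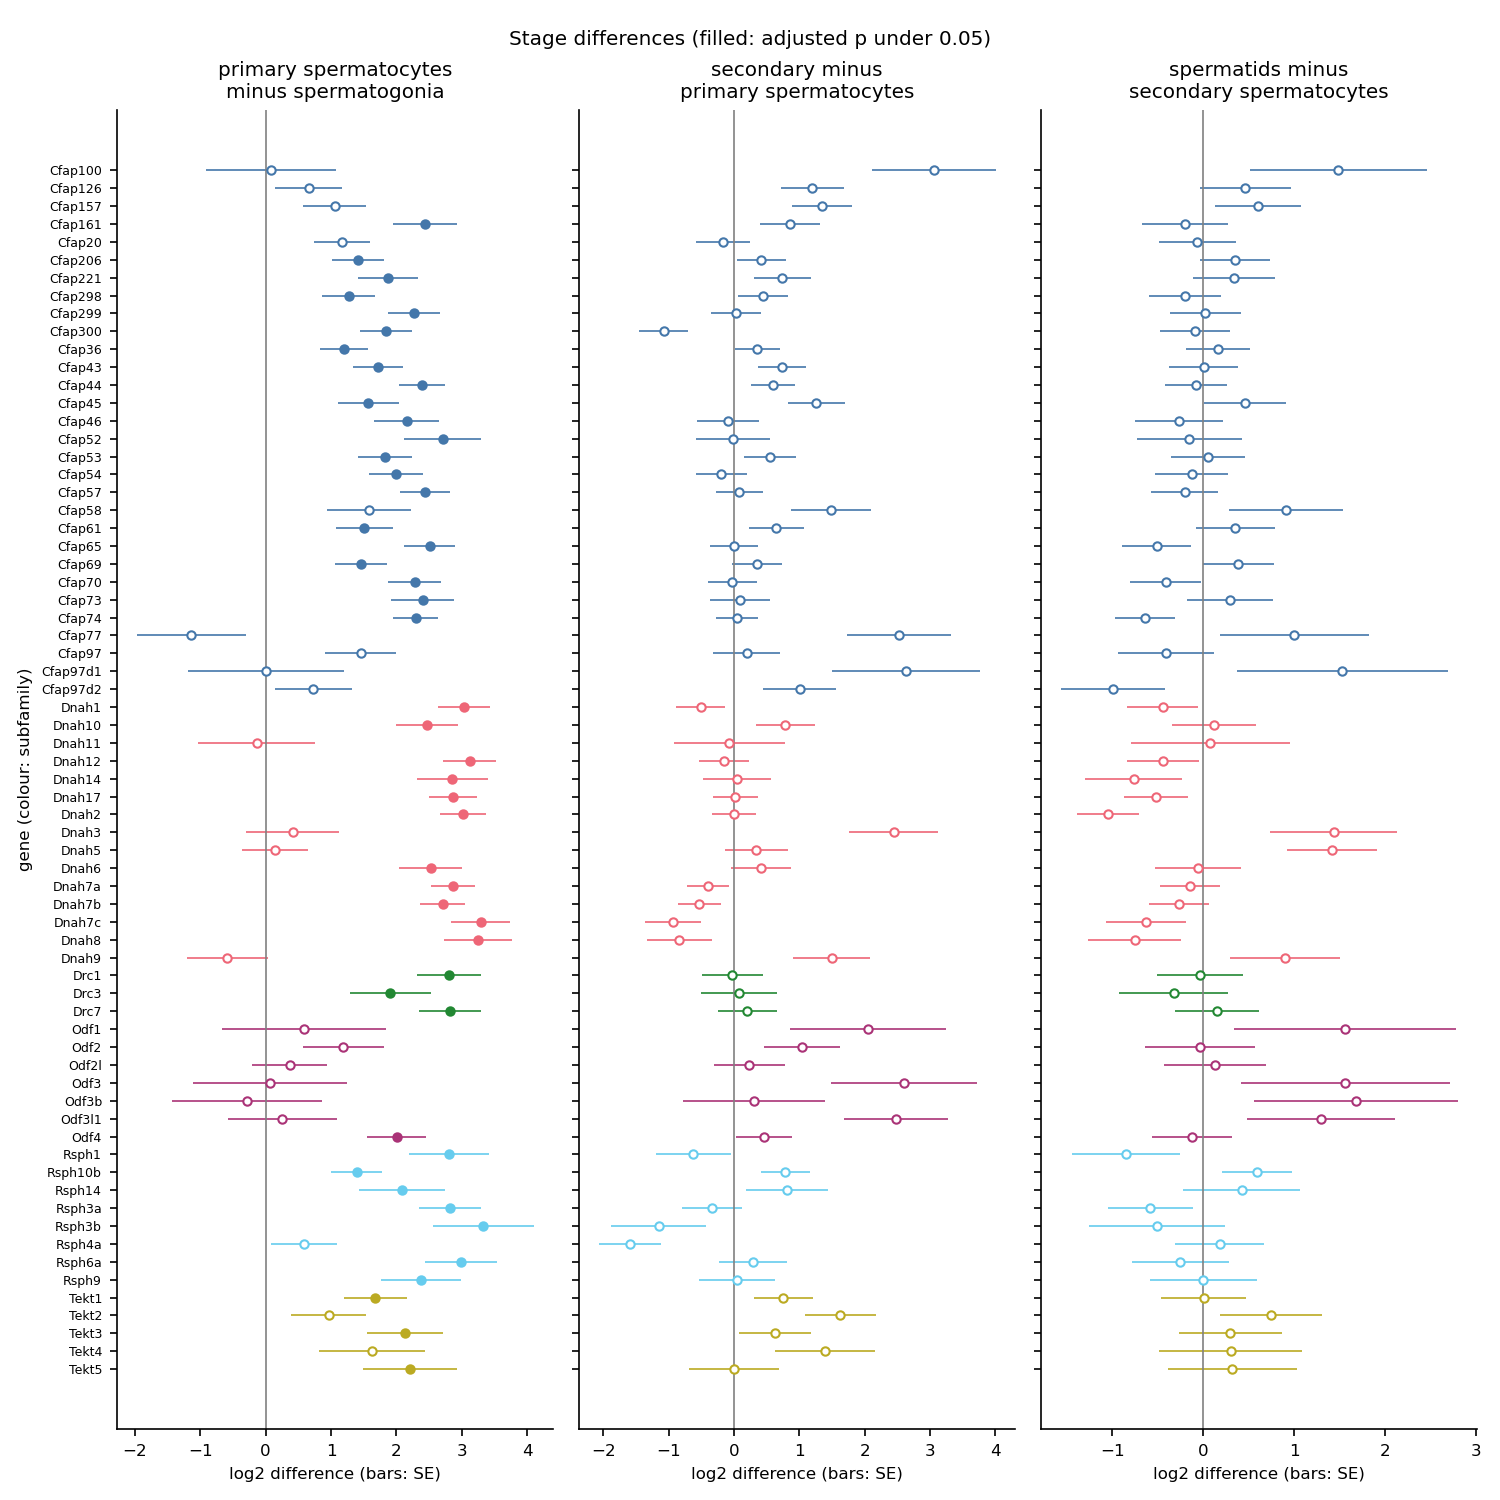
Log2 differences (x axis, bars SE) of 68 members for the 3 successive stage comparisons, coloured by subfamily, with filled points for adjusted p under 0.05; the x axes differ in range. In the left panel 46 points are filled and all lie above 0; no point is filled in the other panels.

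The direction in primary spermatocytes was not shared by every mouse. Within wildtype mouse 178, 57 of 68 members were higher in primary spermatocytes than in spermatogonia, with a median of 2.70 on the log2 scale. Within wildtype mouse 648 it was 61 of 68, with a median of 3.94. Within knockout mouse 544, whose spermatogonia library carried Prm1, it was 25 of 68, with a median of -0.78. These within-mouse values are on RPKM as deposited, without quantile normalization, and the share of all genes was not computed.

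**Figure D2:**
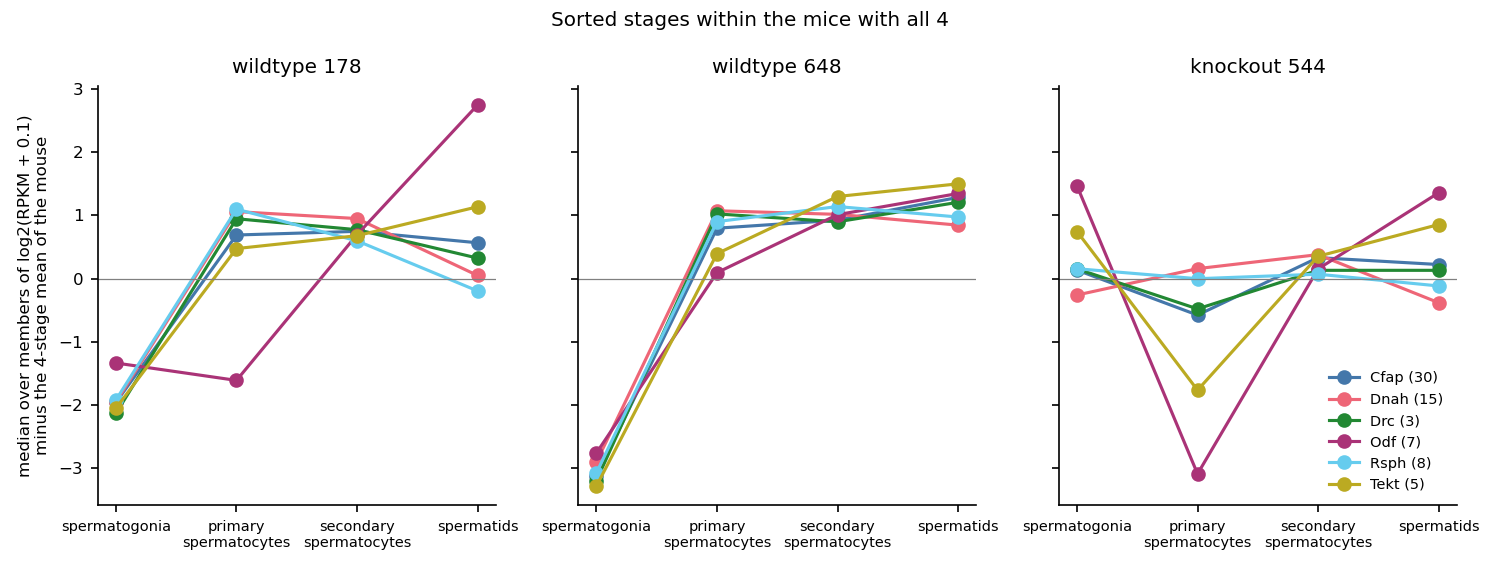
Median over the members of each subfamily of log2(RPKM + 0.1), minus the mean of the 4 stages of the mouse (y axis), for the sorted stages (x axis) of the mice with all 4. In mice 178 and 648 every subfamily median is lowest in spermatogonia, except Odf in mouse 178. In mouse 544 the Cfap, Drc, Odf and Tekt medians are lowest in primary spermatocytes.

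Among dynein heavy chains, 11 of 15 rose in primary spermatocytes, with a subfamily median of 2.85. Dnah8 (chr17:30624354-30877365), an outer arm heavy chain of sperm, was listed at 23.5, 16.9, 41.1 and 75.9 RPKM in spermatogonia of mice 178, 648, 286 and 544. It reached 296, 347, 169, 312, 542 and 267 RPKM in primary spermatocytes of mice 178, 648, 544, 550, 613 and 614, and the stages did not overlap. Its log2 difference was 3.25 (SE 0.52, adjusted p = 0.00079 with limma). Dnah17, the other outer arm heavy chain of sperm, was at 22.4, 13.5, 32.2 and 130 RPKM in spermatogonia of the same mice and at 124 to 322 RPKM in primary spermatocytes, so the stages overlapped through mouse 544. Its difference was 2.86 (SE 0.36, limma adjusted p = 0.00042), and it did not pass on the longest coding transcript alone (1.86, SE 1.28), which is listed at 0 in mouse 613 and at 53.2 to 94.6 RPKM in the other 5 primary spermatocyte libraries. Dnah7c, an inner arm chain, had the largest difference of the subfamily, 3.29 (SE 0.45, limma adjusted p = 0.00048), but Dnah7a, Dnah7b and Dnah7c are near-identical copies between which reads may be split uncertainly. Dnah3, Dnah5, Dnah9 and Dnah11 were not called, with differences from -0.59 to 0.41.

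Radial spoke genes showed 7 of 8 members higher, with a median of 2.59. Rsph1 (chr17:31255019-31277383), a spoke head protein, was at 375, 39.5, 196 and 1068 RPKM in spermatogonia of mice 178, 648, 286 and 544, and at 967 to 3032 RPKM in primary spermatocytes. Only spermatogonia of mouse 544 reached the range of primary spermatocytes, whose lowest library was that of mouse 648. Rsph9 and Rsph14 rose by 2.37 and 2.08. Compared per length on the longest coding transcript, Rsph1 had a mean of 2093 ± 753 RPKM (SD, n = 6) in primary spermatocytes, against 322 ± 124 RPKM (SD, n = 6) for Dnah8. Rsph6a, a spoke head protein of sperm, was at 6.61, 3.43, 8.33 and 91.6 RPKM in spermatogonia and at 29.5 to 131 RPKM in primary spermatocytes (difference 2.99, SE 0.55, limma adjusted p = 0.0015). Rsph3b and Rsph3a, near-identical spoke stalk genes whose reads may be shared, rose by 3.33 and 2.82. Rsph3b was at 316 RPKM in primary spermatocytes of mouse 613, whose scale is uncertain, and at 23.0 to 66.6 RPKM in the other libraries of that stage. Rsph4a was the member not called.

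All 3 nexin-dynein regulatory complex genes rose. Drc1, which holds the base of the complex, was at 8.21, 3.96, 5.80 and 52.0 RPKM in spermatogonia of mice 178, 648, 286 and 544 and at 32.2 to 93.5 RPKM in primary spermatocytes, with a difference of 2.80 (SE 0.49, limma adjusted p = 0.0012). Drc7 rose by 2.81 and Drc3 by 1.91, and the call of Drc3 was lost on the longest coding transcript, with no filter on low values and in wildtype libraries alone. Spermatogonia of mouse 544 overlapped primary spermatocytes for all of them, and for Drc3 those of mouse 178 (47.0 RPKM) lay above mouse 613 (34.6 RPKM) but below the other 5 primary spermatocyte libraries (74.8 to 199 RPKM).

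Of the 5 tektins, which form filaments inside the doublets, Tekt1, Tekt3 and Tekt5 rose in primary spermatocytes, by 1.68, 2.14 and 2.21. Tekt2 and Tekt4 differed by 0.97 and 1.63 and did not pass (limma adjusted p = 0.23 and 0.14). The calls of Tekt1, Tekt3 and Tekt5 were lost with the mouse as a fixed term. Without the spermatogonia library of mouse 544 all 5 passed. That library held 1293 RPKM of Tekt2, against 45.0 to 52.9 RPKM in the other 3 spermatogonia libraries.

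Cfap genes rose in 21 of 30 cases, with a median of 1.65. Cfap52, a protein inside the doublets, and Cfap65, which is needed for flagellum assembly, rose by 2.71 (SE 0.59) and 2.51 (SE 0.39), with limma adjusted p of 0.0038 and 0.00070. Cfap65 was at 31.8, 10.4, 51.2 and 166 RPKM in spermatogonia of mice 178, 648, 286 and 544, and all 6 primary spermatocyte libraries lay above them at 191 to 297 RPKM. Cfap206 and Cfap36 rose by 1.41 (SE 0.40) and 1.20 (SE 0.37), and Cfap298 rose by 1.27. Cfap77, Cfap97d1 and Cfap100 differed by -1.13, 0.00 and 0.08 and were not called.

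Of 7 genes tested that carry an Odf symbol, only Odf4 rose (limma adjusted p = 0.0045), and the median was 0.37. Odf4 was at 88.2, 26.4, 89.6 and 848 RPKM in spermatogonia of mice 178, 648, 286 and 544 and at 199 to 766 RPKM in primary spermatocytes, so mouse 544 lay above all of them. Odf2 differed by 1.19 and was not called. Without the spermatogonia library of mouse 544, 4 of 7 passed and the median was 1.93. Odf1 (chr15:38219203-38226735), a main protein of the fibers, was at 7.06, 0.259, 0.542 and 265 RPKM in spermatogonia of mice 178, 648, 286 and 544. Odf1 was at 1.05 to 20.4 RPKM in primary spermatocytes, so only mouse 544 was far above the rest.

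**Figure D3:**
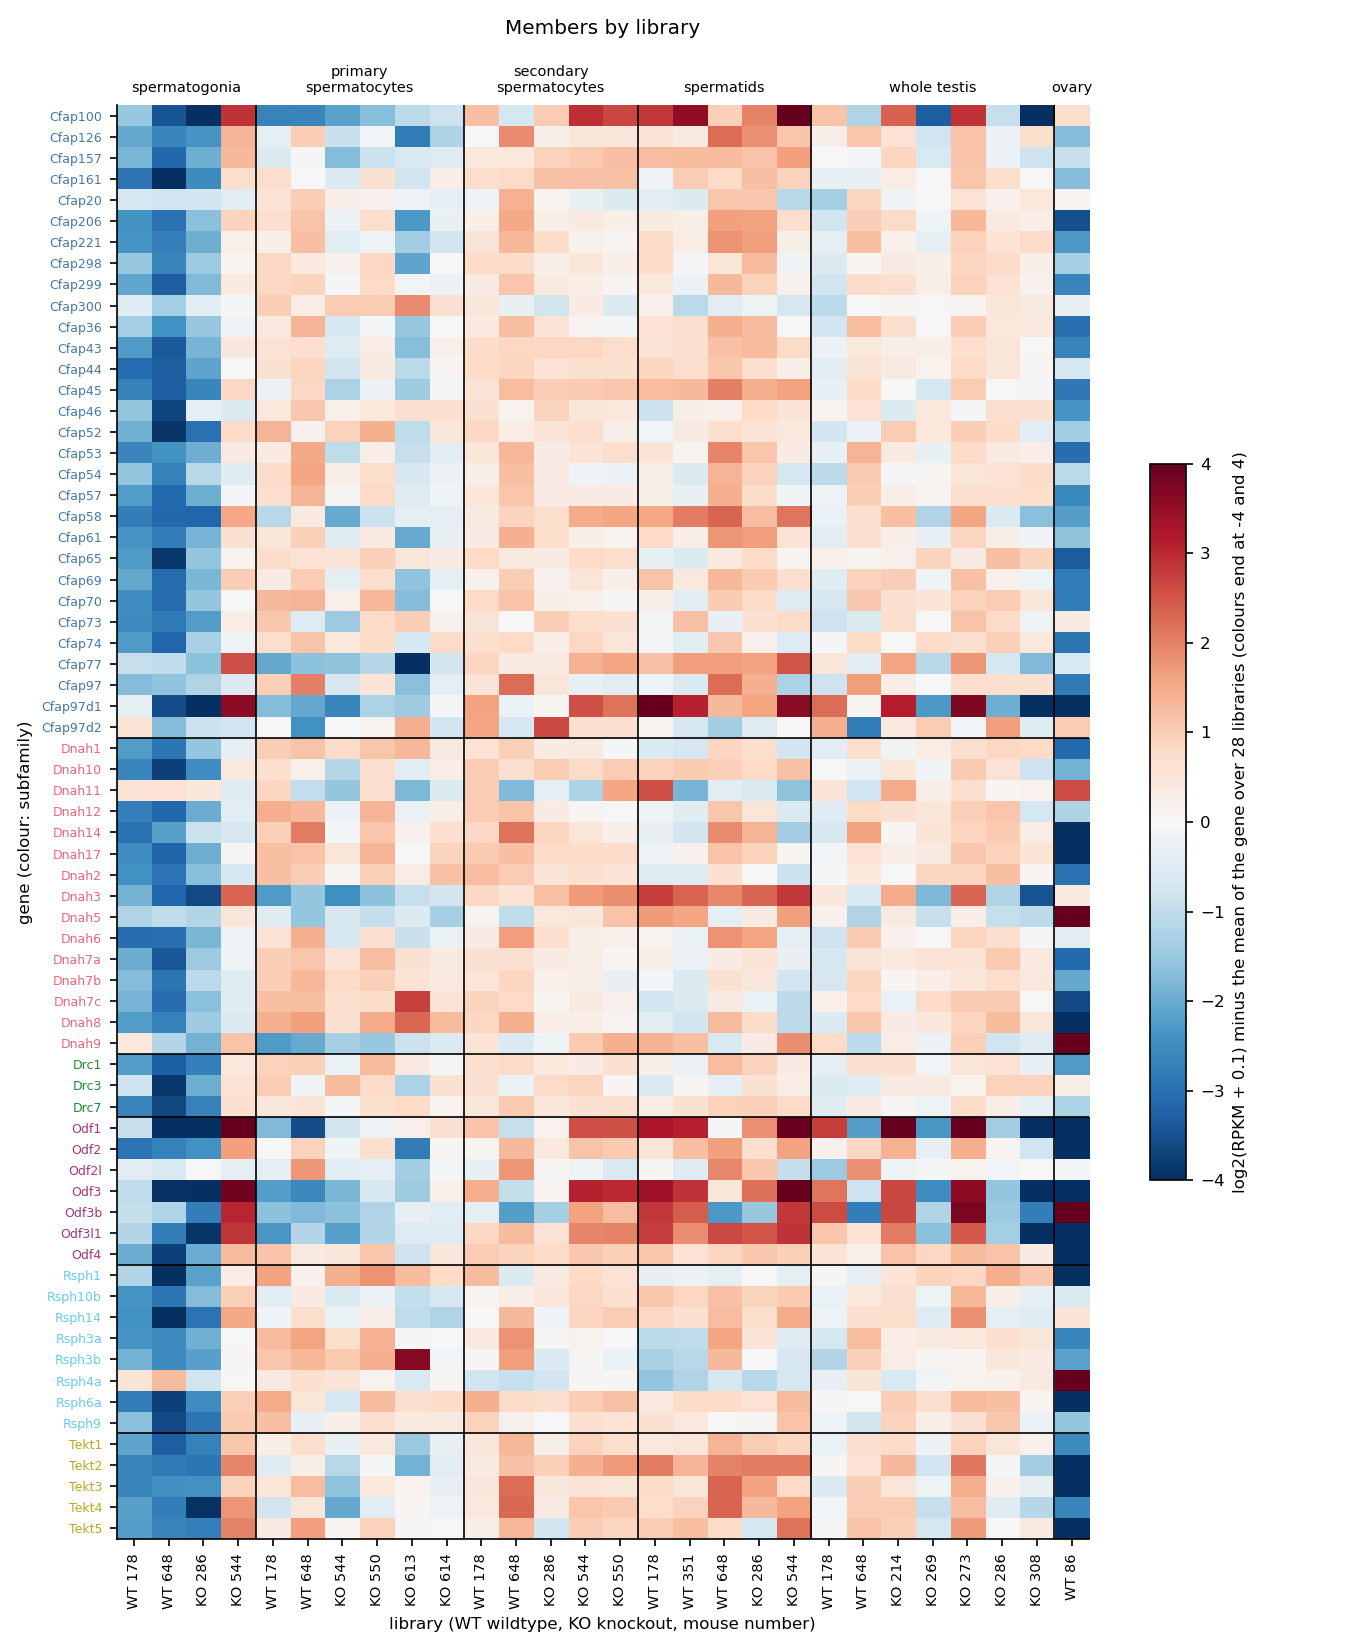
Heat map of log2(RPKM + 0.1) minus the mean of each gene over 28 libraries (colour, ending at -4 and 4) for 68 members (rows, by subfamily) and all libraries (columns, by stage, genotype and mouse). The spermatogonia libraries of mice 178, 648 and 286 are blue for most rows, and Odf1, Odf3, Cfap97d1 and Cfap100 are red in part of the spermatid and whole testis columns.

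Between primary and secondary spermatocytes, 0 of 68 members passed with limma without the mouse as a block (15 at an unadjusted p under 0.05, as were 4742 of 22669 genes), beside 1.29% of genes called higher and 0.476% lower. Libraries of 1 mouse are paired, and with the mouse as a random block 11 members rose and 2 fell, beside 8.83% and 7.91% of genes. Without the spermatogonia library of mouse 544, 9 members rose with no block, beside 4.41% of genes. The members that rose under the block, named after their values were seen, were Cfap100, Cfap157, Cfap45, Cfap58, Cfap77, Cfap97d1, Dnah3, Dnah9, Odf3, Odf3l1 and Tekt2. Those that fell were Cfap300 and Rsph4a, the latter below 1 RPKM in every testis library. Spermatid markers moved with the same comparison. In mice 178, 648, 544 and 550, 5 of them summed to 136, 7.83, 233 and 303 RPKM in primary spermatocytes. In secondary spermatocytes of these mice the sums were 900, 20.6, 2118 and 2246.5 RPKM. The part of spermatid RNA in these rises, also those of Dnah3 and Odf3l1 below, was not tested.

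Dnah3, an inner arm heavy chain, differed in timing from Dnah8. It was at 0.638, 1.10, 0.545, 1.02, 1.76 and 2.01 RPKM in primary spermatocytes of mice 178, 648, 544, 550, 613 and 614. It was at 6.17, 5.14, 7.82, 11.5 and 12.6 RPKM in secondary spermatocytes of mice 178, 648, 286, 544 and 550, with no overlap. The blocked difference was 2.58 (SE 0.58, limma adjusted p = 0.010), against an adjusted p of 0.066 without the block. Dnah3 was at 23.7, 17.4, 13.2, 17.6 and 24.9 RPKM in spermatids of mice 178, 351, 648, 286 and 544, all above secondary spermatocytes.

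Odf3l1, a relative of Odf3, was also separated by stage. It was at 2.65 to 9.46 RPKM in primary spermatocytes and at 24.4, 32.4, 20.1, 52.4 and 54.4 RPKM in secondary spermatocytes of mice 178, 648, 286, 544 and 550. Its blocked difference was 2.71 (SE 0.69, limma adjusted p = 0.017; 0.095 without the block). Spermatids held 93.5, 49.2, 84.7, 77.4 and 102 RPKM of Odf3l1 in mice 178, 351, 648, 286 and 544, and only mouse 351 fell within the range of secondary spermatocytes.

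Between secondary spermatocytes and spermatids, 0 of 68 members passed with limma (2 at an unadjusted p under 0.05, as were 3358 of 22669 genes), beside 0.0% of genes called higher and 0.0485% lower. The Odf median was 1.29 and the Dnah median -0.27, with no member called in either. Odf1 was at 127, 115, 12.5, 47.4 and 204 RPKM in spermatids of mice 178, 351, 648, 286 and 544, and at 29.6, 6.98, 14.7, 79.4 and 78.1 RPKM in secondary spermatocytes of mice 178, 648, 286, 544 and 550. Across mice, the spermatid libraries of mice 648 and 286 lay within the range of secondary spermatocytes. Within each of the 4 mice with both stages Odf1 was higher in spermatids, by 2.10, 1.68, 1.36 and 0.83 on the log2 scale in mice 178, 286, 544 and 648. The spermatid libraries of mice 648 and 286 also held little Prm1, and its part in the result was not tested.

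By mean log2 level over libraries, on RPKM as deposited, spermatids were the highest stage for 34 of 68 members. The share of all genes with each highest stage was not computed. Secondary spermatocytes were highest for 18, primary spermatocytes for 14 and spermatogonia for 2. All 5 tektins and 6 of 7 Odf genes were highest in spermatids, against 4 of 15 Dnah genes. In the same order the counts were 29, 8, 30 and 1 within mouse 178, and 34, 16, 15 and 3 within mouse 648. Mice 178 and 648 gave the same stage for 40 of 68 members. Spermatids were highest in both for 24 members, among them Odf1, Odf2, Odf3, Tekt2, Tekt3, Tekt4 and Dnah3. Primary spermatocytes were highest in both for 12, among them Dnah1, Dnah8, Dnah12, Drc3 and Rsph1. The whole testis of mouse 178 held 603 RPKM of Prm1 and that of mouse 648, whose age was not read, 0.681 RPKM. Within mouse 544, 16 members were highest in the library labelled spermatogonia.

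Part of the heavy chain and spoke genes were high in testis and near 0 in ovary, or the reverse. Of 68 members, 26 were over 4-fold lower in the ovary than in every whole testis, beside 7.3% of genes, and 3 were over 4-fold higher, beside 18.2%. With 1 ovary there is no test. Of 15 Dnah genes 7 were lower, 2 higher and 6 between these limits, and of 8 Rsph genes 2 were lower, 1 higher and 5 between. Dnah5 (chr15:28203752-28472052), the outer arm heavy chain of motile cilia, was at 15.7 RPKM in ovary and at most 0.297 RPKM in 7 testes. Dnah9, another outer arm heavy chain of motile cilia, was at 26.2 RPKM in ovary and at 0.589 to 2.70 RPKM in testes. Rsph4a, a spoke head protein of motile cilia, was at 12.5 RPKM in ovary and at 0.120 to 0.376 RPKM in testes. The sperm counterparts showed the other order. Dnah8 was at 0.225 RPKM in ovary and 76.3 to 264 RPKM in testes, Dnah17 at 0.533 RPKM and 116 to 265 RPKM, and Rsph6a was listed at 0 in ovary and at 46.5 to 113 RPKM in testes. Odf4 was at 0.0690 RPKM in ovary and 406 to 848 RPKM in testes, and Tekt5 at 0.0210 RPKM and 17.3 to 90.7 RPKM. Other members were shared by both tissues, such as Rsph14 at 36.3 RPKM in ovary and 17.6 to 90.2 RPKM in testes, and Dnah6 at 26.3 RPKM and 20.5 to 75.1 RPKM. Odf2, summed over 25 overlapping transcripts, was at 352 RPKM in ovary and 4730.0 to 22436 RPKM in testes. Of the genes with an Odf symbol, 3 were lower in ovary and 4 between the 4-fold limits. Among the latter, Odf2l was at 34.3 RPKM in ovary and 13.1 to 128 RPKM in testes. Odf3b was at 19.3 RPKM in ovary and 0 to 9.09 RPKM in testes.

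The ovary library also held markers of the oviduct and of multiciliated cells, whose 8 listed genes summed to 1680 RPKM. Ovgp1, the oviduct glycoprotein, was at 1445 RPKM, Foxj1, a master factor of motile cilia, at 59.4 RPKM, Tmem212 at 84.7 RPKM and Sntn at 24.5 RPKM. Whole testes held at most 12.8 RPKM of Foxj1 and at most 0.211 RPKM of Tmem212. Of the list, Deup1 alone was higher in every testis than in ovary, and the part of these cells in the ovary levels was not tested.

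**Figure D4:**
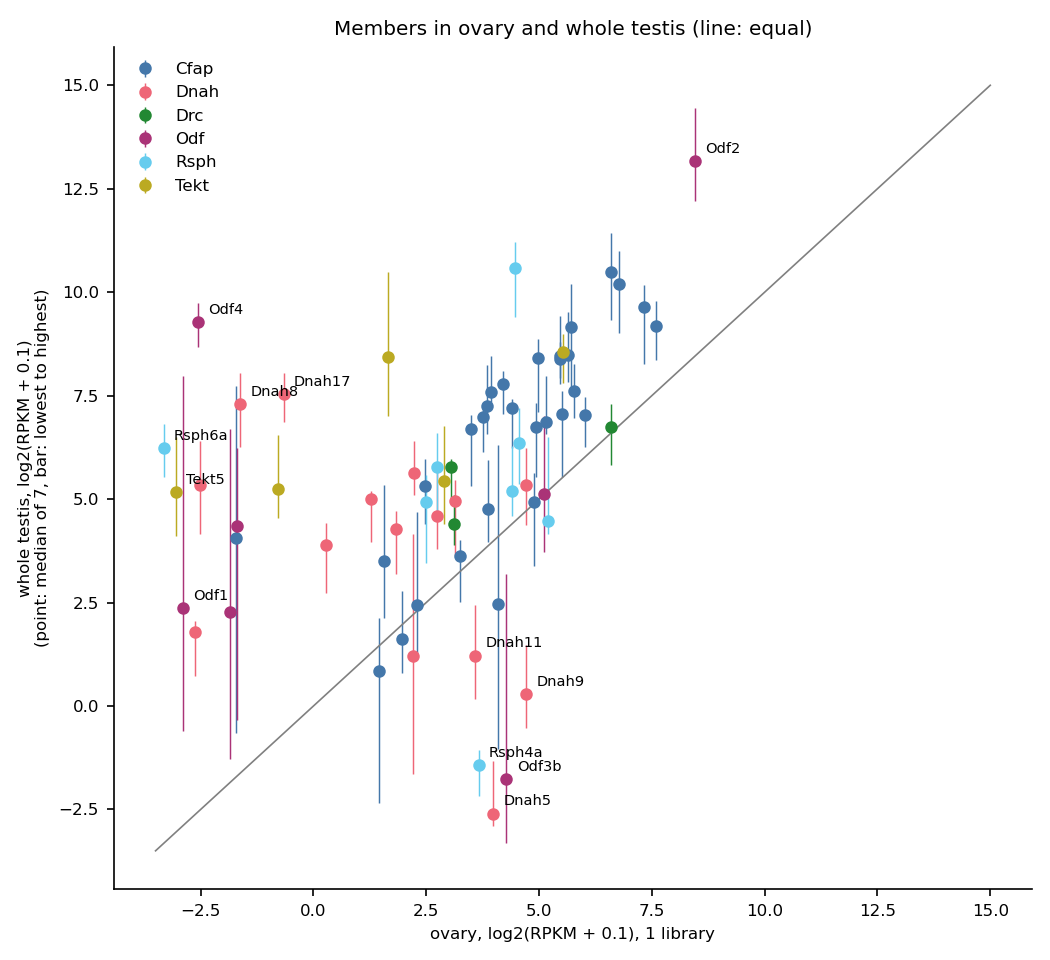
Whole testis level (y axis, point the median of 7 libraries and bar the lowest to highest) against ovary level (x axis, 1 library), both as log2(RPKM + 0.1), for 68 members coloured by subfamily, with a line of equal levels. Dnah5, Dnah9, Dnah11, Rsph4a and Odf3b lie below the line, as do Cfap73, Cfap97d2, Cfap100, Dnah3 and Rsph14 by less. Dnah8, Dnah17, Rsph6a, Odf4 and Tekt5 lie far above it.

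No member passed the test between knockout and wildtype, which does not show that they were alike. In each sorted stage, in the mean over stages and in whole testes, 0 members were called with limma. Over all genes 0.0% were called in each stage and in testes, and 0.00882% in the mean over stages. Spermatogonia had 33 of 68 members at an unadjusted p under 0.05, beside 1405 of 22669 genes. Primary spermatocytes had 5 members and 1329 genes, and the mean over stages 3 members and 1647 genes. The count of members was 0 for secondary spermatocytes, for spermatids and for whole testes. No count over all genes is set beside it, so it is not read as a trait of the members. In spermatogonia 63 of 68 differences were above 0, with a median of 1.58, and the smallest unadjusted p was that of Cfap65 (difference 2.21, SE 0.59, limma adjusted p = 0.65), followed by Cfap44 and by Cfap74 (1.84). Without the spermatogonia library of mouse 544 the median was 0.56 with 6 members at an unadjusted p under 0.05. Without mouse 286, which leaves mouse 544 alone in that group, 32 members were called higher, beside 5.15% of genes. In primary spermatocytes the smallest unadjusted p was that of Cfap221 (difference -1.65, SE 0.60), then Dnah12 (-1.24) and Cfap97 (-1.57), all with a limma adjusted p of 0.82. Dnah12 and Cfap97 also led in secondary spermatocytes, at -0.97 and -1.21, with Dnah7c at -0.97. In spermatids the leading genes were Dnah11, Cfap44 and Cfap74, at -1.34, -0.51 and -0.44. In the mean over stages they were Cfap65, Cfap161 and Cfap46, at 0.77, 0.80 and 0.78 (limma adjusted p = 0.68). The difference of stage differences between genotypes was called for no member (0 of 68 for each stage step, with 37 at an unadjusted p under 0.05 between spermatogonia and primary spermatocytes, beside 1844 of 22669 genes). Without the spermatogonia library of mouse 544 these were 17 members and 870 of 22636 genes.

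In whole testes the smallest unadjusted p was that of Cfap53 (difference -0.82, SE 0.37, limma adjusted p = 0.9986), then Cfap45 (-0.72) and Cfap126 (-0.83). Some members highest in spermatids, such as Odf1, Odf3, Cfap97d1 and Cfap100, spread widely between the testes of each genotype, and others did not, such as Tekt1 at 223 to 508 RPKM and Cfap43 at 242 to 445 RPKM. Odf1 was at 91.9 and 2.82 RPKM in wildtype mice 178 and 648 and at 230.4, 2.56, 252, 5.03 and 0.559 RPKM in knockout mice 214, 269, 273, 286 and 308. Prm1 was at 603 and 0.681 RPKM in the wildtype testes and at 1152, 0.850, 1922, 1.16 and 0.439 RPKM in the knockout testes, high in the same 3 mice, and the part of age in this spread was not tested. Cfap97d1 was at 75.5 and 16.7 RPKM and at 139.7, 3.15, 213, 4.05 and 0.532 RPKM in the same order. Rsph1 was at 894 and 678 RPKM in wildtype and at 1254, 1599, 1536, 2392 and 1829 RPKM in knockout, so that the genotypes did not overlap, with a log2 difference of 0.64 (SE 0.46) that was not called. The median over members of the knockout difference was -0.36 after quantile normalization and 0.20 on RPKM as deposited, where the median over all genes was itself 0.38.

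**Figure D5:**
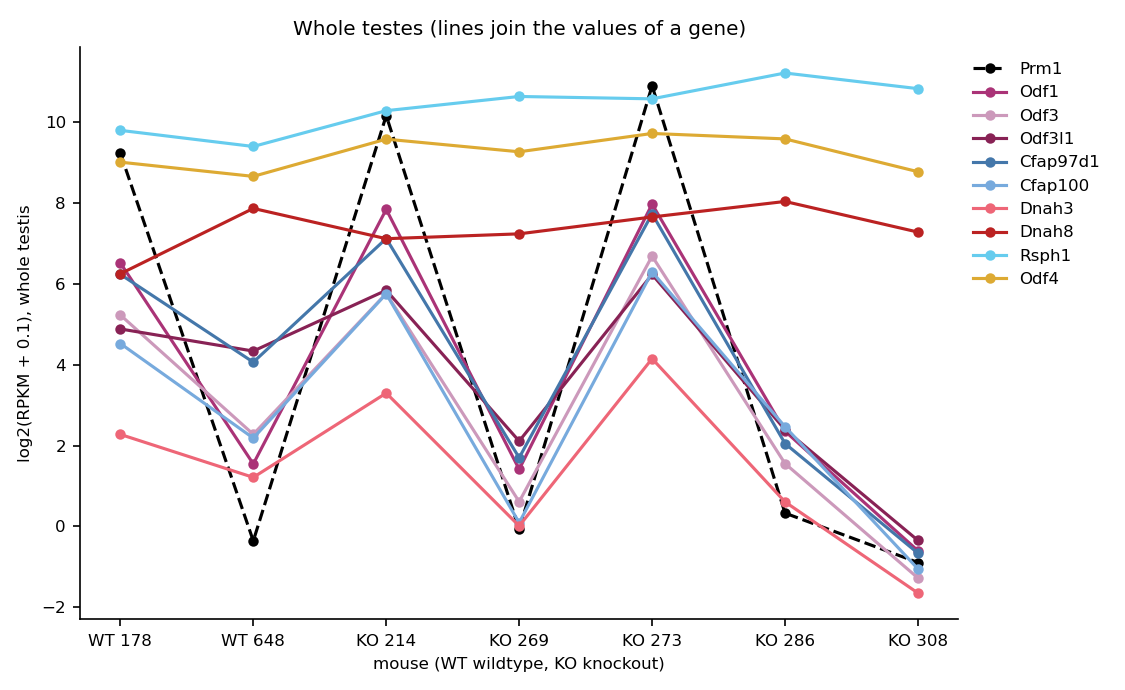
Level in whole testis (y axis, log2(RPKM + 0.1)) of 9 members and of Prm1 (dashed) in 2 wildtype and 5 knockout mice (x axis); lines join the values of a gene and have no order. Odf1, Odf3, Cfap97d1, Cfap100 and Prm1 are high in mice 178, 214 and 273, whereas Rsph1, Dnah8 and Odf4 stay high in every testis.

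Other genes of the pathway, 69 listed and 66 tested, gave 42 higher and 1 lower in primary spermatocytes than in spermatogonia. Of all 22669 genes tested, 14.4% were called higher and 14.0% lower. The fit keeps the spermatogonia library of mouse 544, and no count without that library is given for these genes. All 7 genes of dynein docking and of the rulers that set its spacing rose, as did 9 of 11 dynein assembly factors, 6 of 7 central pair genes and 5 of 7 further genes of the nexin-dynein regulatory complex. Dnaaf1, an assembly factor, rose by 2.70 and Hydin, a central pair protein, by 2.59. Of 14 intraflagellar transport genes, 8 rose, and Ift172 rose by 2.44. Of 6 fibrous sheath and 3 mitochondrial sheath genes, which build the sperm tail outside the axoneme, 2 and 1 rose. Among 8 factors that regulate ciliary or spermatid genes, Rfx2 rose by 2.06 and Rfx4 by 2.20, Rfx3 fell by 1.62, and Foxj1 differed by 0.65 (limma adjusted p = 0.54).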

How the data were processed

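PolyA RNA was sequenced as paired ends, and the authors aligned reads with TopHat2 to an Ensembl annotation and deposited RPKM per transcript. Of 94480 transcripts, 95.6% matched GENCODE M21 (GRCm38), and RPKM was summed per gene, so reads shared by overlapping transcripts are counted more than once, and levels of different genes were compared only on the longest coding transcript. Low values fell on whole reads (within 0.06 of a whole number, transcripts of 200 to 2500 bases) for 93.1% to 94.6% of values in 27 libraries, which gave 23803000 to 61653000 mapped reads. In the library of mouse 613 it was 14.1%, and its depth is unknown. Whether its sums count shared reads in the same way is also unknown. RPKM was tested as log2(RPKM + 0.1), quantile-normalized, for genes with a mean of at least 0.1 RPKM, with limma 3.58.1 in R 4.3.3 over 8 groups of genotype and stage. Stage differences are the mean of those in wildtype and knockout. p-values were adjusted over all genes at 0.05. Fold changes on this scale understate those of low genes. The mouse is the replicate. Libraries of a mouse come from the same animal by their labels: residuals of such pairs correlated with a median of 0.47 (22 pairs), against -0.03 for 151 other pairs. Genes were named by rule: all Drc and Tekt genes, otherwise the largest called changes shared by every mouse, the highest levels by gene sum, and the smallest knockout p-values. Other members named here were chosen after their values were seen. The members and lists were chosen with earlier results of these data known. Alternatives covered the pseudocount, the filter, the scaling, transcripts missing in part of the libraries, each mouse and the mouse block.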

Additional observations from a re-analysis of the deposited data

Results flagged for a closer look

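In the 4 primary spermatocyte libraries of knockout mice, Dnah7c stood apart in mouse 613 (13.3 RPKM, against 2.85 to 3.19 RPKM in the other 3). Tekt5 stood apart in mouse 550 (53.1 RPKM, against 26.3 to 29.4 RPKM), within the 34.7 and 87.5 RPKM of the wildtype libraries of that stage. Over 70 groups examined, chance alone flags about 1 in 20.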

How the results depend on the processing

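The rise of members from spermatogonia to primary spermatocytes was 46 in the reported fit and ranged from 24 to 53 when each mouse was left out, lowest without mouse 648. It was within 1.5 times of 46 under every other alternative run. Members called from primary to secondary spermatocytes, 0 and 0 in the reported fit, were 11 higher and 2 lower with the mouse as a random replicate block, 8 and 2 with the mouse as a fixed term, 1 higher on RPKM as deposited, 9 higher without the spermatogonia library of mouse 544, 17 and 2 with that library left out and the block, 3 and 1 with the quantification set as a term, and 1 lower on the longest coding transcript or with missing transcripts as 0. Leaving out each mouse gave 0 to 8 higher and 0 to 1 lower. From secondary spermatocytes to spermatids, 3 rose and 1 fell with that library left out and the block, and 0 when any mouse was left out. From primary to secondary spermatocytes, 8.83% of all genes were called higher and 7.91% lower with the random block. Without that library and with no block, 4.41% were called higher. The other counts for these steps, and the knockout counts that follow, have no share of all genes beside them here. They are not read as a trait of the members. Knockout calls ranged from 0 to 32 in spermatogonia and 0 to 6 in the mean over stages when a mouse was left out, and were 0 in the other comparisons. Members higher in ovary, 3 at 4-fold against every testis, were 5 at 2-fold and 5 at 4-fold against wildtype testes alone. In the same order, 4262, 7032 and 6897 of 23468 genes were higher. Members lower in ovary were 26, 39 and 31, beside 1712, 2910 and 2501 genes. Within mice, 1 or 16 members (178, 544) were highest in spermatogonia, 30 in primary and 8 in secondary spermatocytes (178) and 20 in spermatids (544). On RPKM as deposited, the median of all genes moved from 0.05 to -0.26 between spermatogonia and primary spermatocytes. Settings and libraries added after the data were seen are the longest coding transcript, the quantification set, the library of mouse 544 with the block and for the differences of stage steps between genotypes, and wildtype testes. The 29 named results kept their direction under all alternatives run. Outside the left-out mice, 363 values stayed on their side of the threshold and 14 no longer passed, and with a mouse left out 196 stayed and 36 no longer passed. The mouse block changed no other count of calls by over 1.5 times. Dnah5, Rsph4a and Odf3b rest on few reads in testis. The causes were not tested.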
